A study of Mus musculus with 35 samples.

Results

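The nuclear genes of oxidative phosphorylation were followed in mouse skin over 4 weeks after radiation. They were chosen by symbol, as rows beginning Nduf followed by a, b, c, s or v, Cox4 to Cox8, Uqcr or Atp5, or reading Sdha to Sdhd, without those marked -ps. The rule found 98 of 36106 rows. Of these rows, 37 were assigned to complex I, 4 to complex II, 8 to complex III, 19 to complex IV and 18 to complex V. They include 2 rows annotated as processed pseudogenes, Ndufb4c of complex I and Cox6c2 of complex IV, and complex V holds Atp5o under 2 identifiers, 1 of them at 0 in every library after rounding. The remaining 12 are not subunits in the strict sense: 8 complex I assembly factors, the supercomplex factor Cox7a2l, the Ndufa4 paralog Ndufa4l2, and the processed pseudogenes Ndufa11b and Ndufs6b. A low-count filter was passed by 92 members, and the 6 that failed it were Cox6c2, Cox7b2, Cox8c, Ndufa11b, Ndufs6b and a second identifier for Atp5o. Cox5a, the subunit used as a marker of the group, had reads in all 35 libraries, at 13.3 to 34.2 CPM, counts scaled to a library of 1e6.

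Oxidative phosphorylation runs in the inner mitochondrial membrane. Complex I takes electrons from NADH and complex II from succinate, complex III passes them to cytochrome c, complex IV hands them to oxygen, and complex V uses the resulting proton gradient to make ATP. Most subunits are encoded in the nucleus, while a small set that sits at the core of complexes I, III, IV and V is transcribed inside the mitochondrion. Skeletal muscle, including the thin panniculus carnosus sheet beneath mouse skin, is rich in these transcripts and uses its own versions of several complex IV subunits.

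All mice were female C57BL/6J, an inbred strain, and 10 weeks old at the start. Radiated skin came from a left flank that had received 25 Gy. Control skin was taken in the same weeks, and the labels do not say from where on the body. Sham mice received no radiation and the labels give them no week. Weeks 1, 2, 3 and 4 each have 4 radiated and 4 control samples, and sham has 3. The series text counts 19 mice for these 35 samples, so equal numbers within a week were read as both skins of 1 mouse. The keratinocyte markers, which define the tissue, had reads in every group, with sums of 7230 to 31500 CPM over the libraries.

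Total counts ran from 17362853 to 28487885 per library, and 3 counts, taken as a floor, amount to 0.105 to 0.173 CPM. The 4 libraries of radiated replicate 3 stood apart. Their 979 most G+C-rich genes (60% or more) lay a median 0.29 to 0.67 log2 units above the level over all libraries, against -0.19 to 0.19 in the other 31. The 26 members with a G+C content of 55% or more lay at -0.15 to 0.37 in these 4 libraries and at -0.47 to 0.43 in the others, while Cox6a1 and Cox8a were highest there in week 3. The main counts are also given without replicate 3 of the radiated group. Kallisto shares reads among similar transcripts, and 56 of the 98 members had at least 1 count that was not whole (by more than 0.001). Such members are less certain. Counts were not whole in all 35 libraries for Ndufb4 with its copy Ndufb4c, Cox4i1, Cox7a2, Atp5md, Ndufa12, Ndufv3, Ndufa9, Cox6c and Atp5h, among others. For Ndufb8 and Uqcrc2 this held in 33 libraries.

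RefSeq promoter windows (GRCm38.p6, 250 bases before to 50 after a gene's start) matched 76 of the 98 members. The letters GCGCA, any base and GCGC, bound by NRF1, a known activator of respiratory genes, stood on either strand in 19 of the 76 (25.0%) and in 5.19% of all 27025 genes with a window. The ETS-type letters CCGGAAG were present in 19 members (25.0%, against 9.93% of genes) and the YY1-type letters AAGATGGC in 11 (14.5%, against 3.19%). The ERR-type letters TCAAGGTCA were rarer, in 2 members (2.63%, against 0.466%). None of the 4 letter strings contains another. The 4 stretches below run from 250 to 51 bases before the start, 5′ to 3′, with NRF1-type matches in capitals. Atp5h, of the complex V stalk, fell in weeks 3 and 4, Cox6a1 and Cox7a2 are widely expressed complex IV isoforms, and Cox7a1 is the muscle counterpart of Cox7a2.
Atp5h (chr11:115419970-115420169, minus strand): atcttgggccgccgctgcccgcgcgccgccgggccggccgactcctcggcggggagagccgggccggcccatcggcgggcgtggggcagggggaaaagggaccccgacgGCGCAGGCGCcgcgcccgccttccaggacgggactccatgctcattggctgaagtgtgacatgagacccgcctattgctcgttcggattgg
Cox6a1 (chr5:115349009-115349208, minus strand): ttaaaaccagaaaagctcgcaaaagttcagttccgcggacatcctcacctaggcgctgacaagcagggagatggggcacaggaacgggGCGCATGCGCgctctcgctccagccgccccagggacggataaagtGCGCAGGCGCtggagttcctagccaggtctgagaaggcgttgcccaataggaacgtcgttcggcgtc
Cox7a1 (chr7:30183921-30184120, plus strand): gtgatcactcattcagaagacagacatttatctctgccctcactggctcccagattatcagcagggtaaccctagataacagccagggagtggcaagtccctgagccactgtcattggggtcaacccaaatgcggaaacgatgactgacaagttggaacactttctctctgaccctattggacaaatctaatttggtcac
Cox7a2 (chr9:79759904-79760103, minus strand): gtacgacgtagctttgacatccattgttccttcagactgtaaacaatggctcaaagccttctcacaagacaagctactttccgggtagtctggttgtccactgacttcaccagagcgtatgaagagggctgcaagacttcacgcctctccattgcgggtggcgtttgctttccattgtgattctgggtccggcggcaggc
In the printed bases Atp5h holds 1 match and Cox6a1 holds 2, while none of the 4 motifs is in those of Cox7a1 or Cox7a2. Atp5h and Cox6a1 also hold the ETS-type letters, in the part of their windows that is not printed.

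In radiated against control skin, most members lay lower at each of the 4 weeks, and the fall passed the test for some of them in weeks 3 and 4. In bulk tissue, fewer cells of a type and less RNA per cell cannot be told apart. Fold changes are on a log2 scale and adjusted p-values come from edgeR's quasi-likelihood test with Benjamini-Hochberg adjustment over all genes, with a threshold of 0.05. In week 3, 22 of 92 members fell and 1 rose, where 27.2% of all 17653 genes tested were called, 13.6% in each direction. In week 4, 23 fell and 1 rose, where 48.4% of 17850 genes were called, 24.2% in each direction. The falling share of members was thus 23.9% in week 3, above the background, and 25.0% in week 4, close to it. Rising members stayed at 1.09% in both weeks.

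No member was called by edgeR in week 1, where 0% of genes were called, or in week 2, where 0.00577% were. With the pairs as a block 0 members were called in week 2 as well, where 3.7% of genes were. At an unadjusted p under 0.05, 38 members were lower in week 1 and 16 in week 2, none higher, against 7.04% and 5.22% of all genes on the lower side. DESeq2's Wald test called 4 members lower in week 1 and 1 in week 2, against 1.55% and 1.14% of all genes. The median member changed by -0.33, -0.29, -0.36 and -0.28 in weeks 1 to 4, when the median over all genes was 0.05, 0.00, 0.08 and 0.02. Under total-count scaling the member medians were -0.19, -0.23, -0.12 and -0.19, and the week 4 median was -0.16 without control replicate 4. Radiated skin was lower in 4 of 4 pairs for 51, 41, 40 and 30 of the 92 members, against 13%, 13.5%, 23.4% and 28.9% of all genes. The 4 radiated libraries all lay below the 4 control libraries for 29, 9, 30 and 17 members (31.5%, 9.78%, 32.6% and 18.5%), against 4.9%, 2.95%, 17.3% and 23.2% of all genes, so that week 4 was under the background. The scale of libraries mattered most in week 3: with plain totals in place of TMM factors, the median of all genes shifted by 0.24, and 8 members fell while 3 rose, with 4054 higher and 1270 lower calls over all genes. Single control libraries also moved the number called, from 23 in week 3 to 12 without control replicate 4 and 13 without control replicate 2, and from 24 in week 4 to 15 without control replicate 4.

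**Figure D1:**
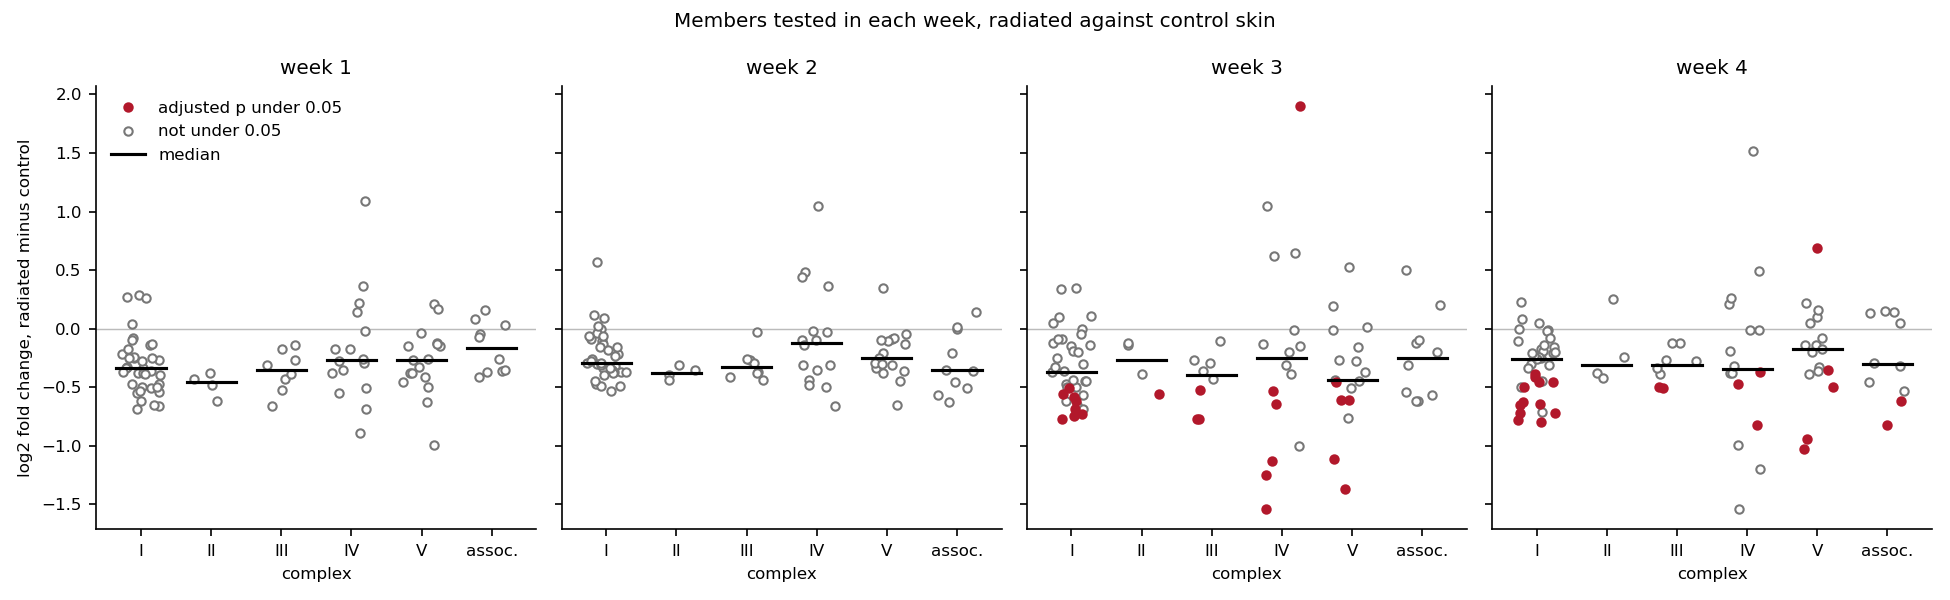
Log2 fold change (vertical axis, radiated minus control) of each tested member by complex, with 1 panel per week; filled points had an adjusted p under 0.05, open points did not, and bars mark medians. Complex medians lie between -0.46 and -0.12 in all 4 weeks, and filled points appear in weeks 3 and 4 only.

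The median fold change was below 0 in all 5 complexes in each week. Complex I fell in 8 of 37 tested rows in week 3 and 12 in week 4, complex III in 3 and 2 of 8, complex V in 5 and 4 of 17, complex IV in 5 and 3 of 16, and complex II in 1 and 0 of 4. The falling shares in week 3, 21.6%, 25%, 37.5%, 31.2% and 29.4% for complexes I to V, stood beside 13.6% of all genes. In week 4 they were 32.4%, 0%, 25%, 18.8% and 23.5% beside 24.2%, so that complexes III and V were close to the background and II and IV below it. Their medians in week 3 were -0.37 for complex I, -0.26 for II, -0.39 for III, -0.25 for IV and -0.44 for V, and in week 4 they were -0.26, -0.31, -0.31, -0.34 and -0.17. Leaving out 1 library at a time gave week 4 medians of -0.35 to -0.14 for complex I and -0.37 to -0.16 for II. The ranges were -0.4 to -0.19 for III, -0.4 to -0.18 for IV and -0.24 to -0.02 for V. Complex III had fold changes below 0 for all 8 subunits in every week, passed or not, though total-count scaling left 7 of 8 below 0 in weeks 2 and 3. Complex IV ranged from -1.54 to 1.90 in week 3. Whether one complex changed more than another was not tested. Across the weeks, the interaction of week and radiation passed for 0 of 92 members in edgeR, where 15.6% of 19338 genes passed, with 4 members at an unadjusted p under 0.05 (29.5% of genes) and a smallest adjusted p of 0.0619, of the assembly factor Ndufaf8. With the pairs as a block, Ndufaf8 passed at an adjusted p of 0.0397.

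**Figure D2:**
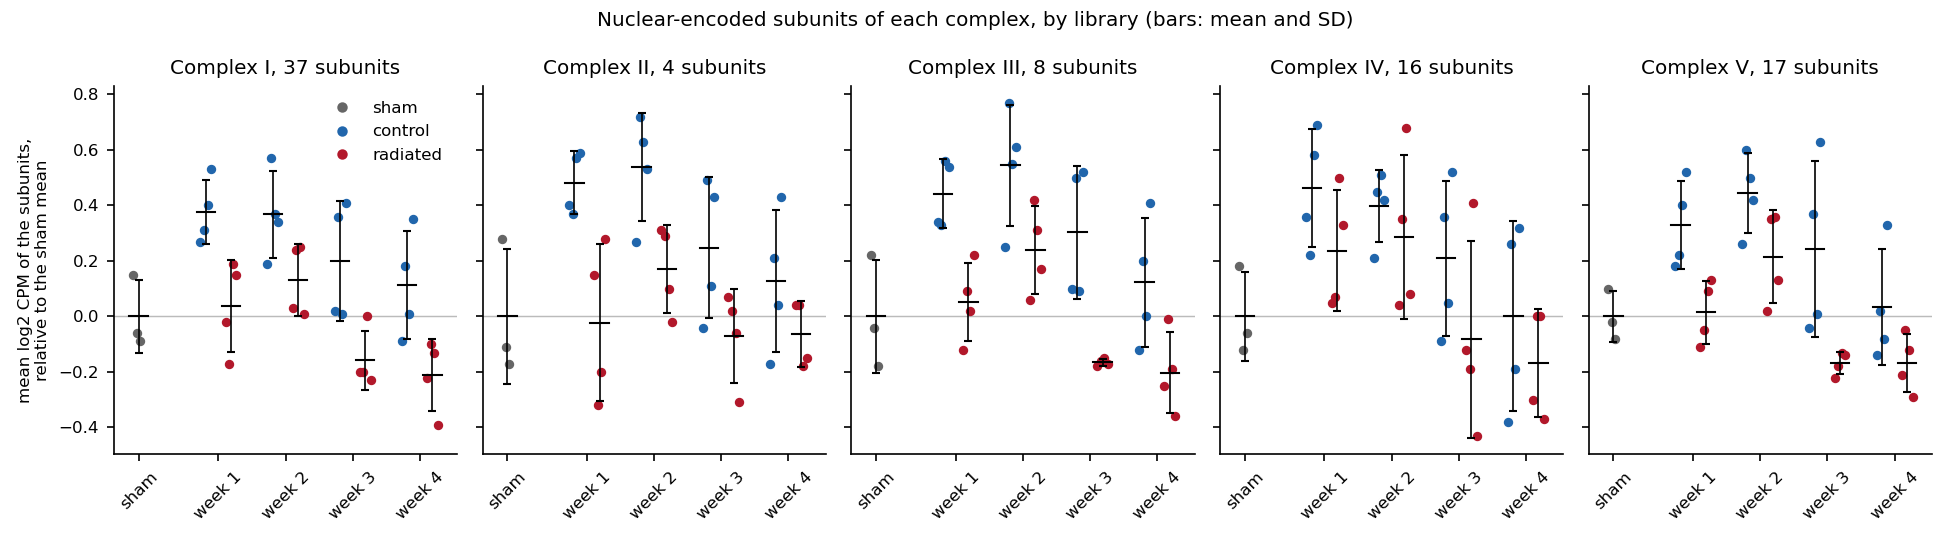
Mean log2 CPM of the subunits of each complex in each library, relative to the mean of the 3 sham libraries (vertical axis); within a week, control libraries are on the left and radiated on the right, and bars give mean and SD. In week 1, control means lie 0.33 to 0.48 above sham and radiated means between -0.02 and 0.24, the latter for complex IV, which is 0.15 without radiated replicate 3.

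Relative to sham skin, the mean complex scores of radiated skin lay between -0.21 and 0.29 over the 4 weeks, and those of control skin between 0.33 and 0.54 in weeks 1 and 2, 0.20 and 0.30 in week 3 and 0.00 and 0.13 in week 4. The highest radiated mean, complex IV in week 2, was 0.16 without radiated replicate 3, and the range of radiated means was then -0.25 to 0.22. These comparisons share samples with those above, so they are set side by side only. The complex I score, a mean log2 CPM over its subunits, was 0.38 ± 0.12 (SD, n = 4) above the sham mean in week 1 control samples and 0.04 ± 0.17 in radiated ones. In week 4 it was 0.11 ± 0.19 and -0.21 ± 0.13. Sham libraries themselves ran from -0.09 to 0.15. Sham skin also differed in hair cycle markers: 10 anagen follicle markers summed to 886 to 10200 CPM there, against 18.2 to 68.3 in radiated and 16.5 to 2760 in control skin of week 1. All 10 were lower in radiated than in sham skin in weeks 1 and 2 (medians -7.41 and -7.71; 0 and 6 of 10 without radiated replicate 3), and the part of this difference in the sham comparisons was not tested.

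Radiated against sham skin gave 0 members in weeks 1 and 2, where 1.75% and 5.06% of genes were called, with 1 and 8 members at an unadjusted p under 0.05 (16.6% and 23.6% of genes) and 0 and 1 by DESeq2 (6.79% and 13.8%). Week 3 gave 1, the complex IV subunit Cox7b, and week 4 gave 1, Atp5h, where 18.2% and 26.7% of genes were called. Cox7b was 5.96 ± 0.429 CPM in radiated skin and 10.7 ± 0.988 in sham (-0.80, SE 0.204, adjusted p 0.03, edgeR). Atp5h was 60.6 ± 3.93 CPM against 78.6 ± 1.62 (-0.33, SE 0.1, adjusted p 0.0414, edgeR). Without the low-count filter 0 members were called in either week, and leaving out 1 library at a time gave 0 to 4 in week 3 and 0 to 5 in week 4. The members' median was -0.11 in week 3 and -0.16 in week 4, and 0.03 and -0.03 over all genes. In the same comparisons 3 and then 11 of 14 skeletal muscle markers were lower (5 and 11 without radiated replicate 3), and 5 of 5 neutrophil and 6 of 6 macrophage markers were higher in both weeks. Fibroblast markers were higher in 2 and then 5 of 6 and endothelial markers in 2 and then 4 of 4. Without radiated replicate 3, each of these 2 lists gave 1 higher in week 3. Anagen follicle markers were lower in 6 and then 3 of 10 (4 and 10 without radiated replicate 3). The part of all these markers in the members' changes was not tested.

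Control against sham skin gave 6 members higher in week 1, where 4.92% of genes were called. They were Ndufa8 of complex I, Sdhc of the complex II anchor, Uqcr11 of complex III, Cox6a2 and Cox8b of complex IV and Atp5d of complex V, with changes of 0.58 to 1.61. Cox6a2, the muscle form of its subunit, was the only member called by edgeR in weeks 2 and 3 (1.66 and 1.58), where 2.44% and 11.4% of genes were called. Some other settings called more members in these weeks, as given in the closing section. No member was called in week 4 (3.65% of genes), with 4 at an unadjusted p under 0.05 (22% of genes) and 1 by DESeq2 (10.3%). The median member stood at 0.33, 0.39, 0.20 and 0.09 in weeks 1 to 4, and at 0.18, 0.20, 0.03 and 0.04 under total-count scaling. The medians over all genes were -0.04, -0.05, -0.04 and -0.03, and -0.19, -0.23, -0.21 and -0.08 under that scaling. Skeletal muscle markers were higher in 10, 8, 7 and 0 of 14 in the same comparisons, and adipocyte markers in 5, 1, 0 and 1 of 8. Anagen follicle markers were lower in 0, 0, 6 and 9 of 10. The part of these 3 lists in the members' changes was not tested. These calls rested on few libraries: leaving out 1 library at a time gave 0 to 11 members in week 1, 0 to 22 in week 2 and 0 to 3 in week 3.

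Complex I has accessory subunits, which surround its electron-carrying core. Of 29 tested accessory rows, which include the pseudogene Ndufb4c and leave out Ndufv3, 7 fell in week 3 and 10 in week 4. Over all genes 13.6% and 24.2% fell. Among these rows Ndufa9, Ndufb3, Ndufb8, Ndufb9, Ndufs4 and Ndufs6 fell in both weeks. A separate group of 8 held the nuclear-encoded core, which takes up electrons and passes them on, and the accessory subunit Ndufv3. In it Ndufv2 fell in week 3 and Ndufv2 and Ndufv3 in week 4, 1 and 2 of 8, where 13.6% and 24.2% of all genes fell. With the pairs as a block, the calls of Ndufs6 and Ndufv2 were lost in both weeks and that of Ndufa9 in week 4.

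Ndufa12, an accessory subunit near the NADH-oxidizing arm (chr10:94198720-94221443, GRCm38), had the largest fall within complex I in week 3. Control libraries held 48.2, 62.1, 45.1 and 66.6 CPM and radiated libraries 30.5, 34.9, 32.7 and 29.8. The groups did not overlap, and the change was -0.77 (SE 0.16, adjusted p 0.00824, edgeR). In week 4 its control libraries, at 35.0, 57.0, 37.0 and 61.9 CPM, overlapped the radiated ones at 38.2, 36.0, 31.6 and 28.3 (-0.50, adjusted p 0.0595, edgeR). Ndufb8, which sits in the membrane arm, was lower in both weeks without overlap. Its week 4 values were 54.7, 57.8, 54.5 and 70.5 CPM in control and 41.4, 37.2, 36.4 and 29.1 in radiated skin (-0.72, SE 0.131, adjusted p 0.00149, edgeR). In week 3 its change was -0.69 (adjusted p 0.0075, edgeR).

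Ndufv3 fell in week 4 and not detectably in week 3. Week 4 control libraries held 17.1, 22.7, 15.3 and 20.8 CPM and radiated ones 10.4, 11.2, 11.4 and 10.5 (-0.80, SE 0.141, adjusted p 0.00119, edgeR). Radiated libraries were close to each other and all below control. In week 3 they were at 11.5, 14.4, 16.3 and 12.6 CPM, overlapping the control range of 11.8 to 16.4 (-0.09, adjusted p 0.74, edgeR). The change of Ndufv3 over weeks did not pass (adjusted p 0.117, edgeR interaction test). Of the 8 assembly factors, which help build complex I and leave it, 0 fell in week 3 and 1 in week 4, where 13.6% and 24.2% of all genes fell. The 1 was Ndufaf1, from 15.5 ± 1.17 to 10.1 ± 1.08 CPM (SD, n = 4, change -0.62, adjusted p 0.00233, edgeR).

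Complex II oxidizes succinate and is also an enzyme of the citric acid cycle. Its flavoprotein Sdha (chr13:74322254-74350280, GRCm38) held 193, 235, 187 and 224 CPM in control and 163, 148, 127 and 123 in radiated skin of week 3. All radiated libraries were below all control libraries, a change of -0.56 (SE 0.143, adjusted p 0.0194, edgeR). The adjusted p was 0.0563 without control replicate 2, was also above the threshold without control replicate 4, and was 0.132 under total-count scaling. In week 4 the values overlapped, at 163 to 261 CPM in control and 132 to 170 in radiated skin (-0.38, adjusted p 0.0659, edgeR). Sdhb, Sdhc and Sdhd passed in neither week.

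Complex III moves electrons to cytochrome c, with the iron-sulfur protein Uqcrfs1 as a catalytic subunit. Uqcrb, a small subunit (chr13:66900617-66905378, GRCm38), held 46.3, 51.8, 43.2 and 61 CPM in control and 30.6, 30.9, 24.9 and 29.6 in radiated skin of week 3. The 4 radiated libraries lay close together and below every control library (-0.77, SE 0.152, adjusted p 0.00645, edgeR). Sham libraries held 41.4, 38.5 and 32.1. The core subunit Uqcrc2 (chr7:120635176-120659524, GRCm38) fell by 0.77 in week 3 and by 0.51 in week 4 on the log2 scale (adjusted p 0.00556 and 0.016, edgeR). Its week 4 values were 55, 78.2, 61.4 and 79.8 CPM in control and 51.2, 54.6, 45.9 and 40.1 in radiated skin, with no overlap though the nearest values almost met. Without control replicate 2 its week 4 adjusted p was 0.0517 (edgeR). Uqcrfs1 fell in week 3 only by the test (-0.52, adjusted p 0.0476, edgeR), at 0.108 with the pairs as a block.

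Complex V makes ATP from the proton gradient, and its largest falls were in Atp5md and Atp5c1. Atp5md, a small membrane subunit tied to the pairing of ATP synthases (chr19:47083464-47090647, GRCm38), held 39.6, 35.1, 32.9 and 43.7 CPM in control and 19.3, 16.1, 10.7 and 11.0 in radiated skin of week 3. In week 4 these were 27.2, 39.1, 32.0 and 49.5 against 20.6, 19.1, 15.9 and 16.7. No radiated library reached a control library in either week, with changes of -1.37 (SE 0.22, adjusted p 0.00292) and -1.03 (SE 0.185, adjusted p 0.00137) in edgeR. Week 1 already held 22.9 ± 4.81 against 45.7 ± 7.4 CPM for Atp5md (SD, n = 4; -0.99, adjusted p 0.171, edgeR), which did not pass after adjustment.

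Atp5c1, the gamma subunit whose rotation drives ATP synthesis (chr2:10056016-10080510, GRCm38), fell to a similar degree. Control libraries of week 3 held 121, 117, 111 and 140 CPM and radiated libraries 57.0, 62.8, 58.2 and 43.7. The groups were far apart (-1.11, SE 0.149, adjusted p 0.00169, edgeR), and in week 4 the change was -0.94 (adjusted p 0.00182). Sham libraries spread widely, at 121, 113 and 60.1 CPM. Atp5h, of the peripheral stalk, fell by 0.46 and 0.35 on the log2 scale (adjusted p 0.0401 and 0.0109, edgeR), and its week 3 call was lost with the pairs as a block (adjusted p 0.0879).

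Atp5mpl, another small membrane subunit, went the other way in week 4. It held 6.67, 6.32, 5.42 and 9.30 CPM in control and 10.3, 12.1, 10.7 and 11.5 in radiated skin, without overlap (0.69, SE 0.176, adjusted p 0.00951, edgeR). Sham libraries, at 9.36, 9.19 and 11.4 CPM, were nearer to the radiated ones. In week 3 its groups overlapped (0.19, adjusted p 0.709, edgeR). The 3 c-ring genes, Atp5g1, Atp5g2 and Atp5g3, passed in neither week.

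Over weeks 3 and 4 together, 15 members fell in both, which is 68.2% of the week 3 list and 65.2% of the week 4 list. This was 16.3% of the 92 members, and 10.5% of all 17393 genes tested in both weeks fell in both, which is 76.2% and 42.3% of the lists over all genes. They were Ndufa9, Ndufb3, Ndufb8, Ndufb9, Ndufs4, Ndufs6 and Ndufv2 of complex I, Uqcrb and Uqcrc2 of complex III, Cox6c and Cox7b of complex IV, and Atp5c1, Atp5h, Atp5j2 and Atp5md of complex V. With the pairs as a block 10 fell in both weeks, without Atp5h, Atp5j2, Ndufa9, Ndufs6 and Ndufv2. Under total-count scaling 6 did, namely Atp5c1, Atp5md, Cox7b, Ndufb8, Uqcrb and Uqcrc2. Of the 11 of the 15 with a promoter window, 3 held the NRF1-type letters, 2 the ETS-type letters, 5 the YY1-type letters and 0 the ERR-type letters. Without radiated replicate 3, 24 members fell in week 3 and 20 in week 4, of which 20 and 19 were among the 22 and 23, against 13% and 23.1% of all genes on the lower side. With the pairs as a block, 18 and 17 fell, all of them among the 22 and 23, against 11.1% and 21.3% of all genes.

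The complex IV subunits Cox6a, Cox7a and Cox8 each exist in a muscle form and a widely expressed form. In week 3, 2 of the 3 muscle forms and 0 of the 5 widely expressed forms fell. Among the 6 tested subunits grouped as single-form, Cox6c, Cox7b and Cox7c fell, though Cox7b has a testis form, Cox7b2, which failed the filter. In week 4 these were 0 of 3, 1 of 5 (Cox7a2) and 2 of 6 (Cox6c and Cox7b). Over all genes 13.6% fell in week 3 and 24.2% in week 4, and no test compared these groups with that share.

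Cox7a1, the muscle form (chr7:30184144-30186078, GRCm38), held 10.1, 16.6, 9.25 and 10.4 CPM in control and 3.84, 5.32, 4.72 and 1.70 in radiated skin of week 3. The groups did not overlap (-1.54, SE 0.354, adjusted p 0.012, edgeR). In week 4 the control libraries ran from 0.952 to 13.5 CPM, with replicate 1 below all radiated libraries, which held 1.88, 3.06, 2.85 and 2.54 (-1.54, adjusted p 0.0534, edgeR). Sham libraries held 8.65, 2.95 and 4.44. Cox7a2, the partner (chr9:79755361-79759878, GRCm38), held 12.5, 16.6, 11.7 and 13.2 CPM in control and 12.0, 9.65, 8.68 and 12.4 in radiated skin of week 3, with overlap (-0.31, adjusted p 0.258, edgeR). In week 4 its libraries separated, at 16.3, 17.2, 15.1 and 18.6 against 14.0, 13.4, 12.8 and 11.7 CPM (-0.37, adjusted p 0.0236, edgeR, and 0.0691 with the pairs as a block). That call was lost on leaving out any 1 of 3 of the 8 libraries.

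Cox8b, also a muscle form, held 7.38, 10.4, 9.85 and 8.79 CPM in control and 4.53, 3.31, 5.83 and 1.34 in radiated skin of week 3, again apart (-1.25, SE 0.386, adjusted p 0.0391, edgeR). That call was lost on leaving out any 1 of 6 of the 8 libraries. Its partner Cox8a was low throughout week 3, at 3.65, 4.67, 3.76 and 8.11 CPM in control and 3.75, 4.80 and 5.29 in radiated skin, except for radiated replicate 3 at 16.4. For Cox8a the change was 0.62 (adjusted p 0.371, edgeR) with that library and -0.10 without it. In week 4, Cox8b held 1.22, 6.41, 4.65 and 18.9 CPM in control and 3.07, 5.51, 2.89 and 2.19 in radiated skin, with wide overlap (-1.20, adjusted p 0.16, edgeR). Leaving out 1 library at a time, this change ran from -1.53 to -0.24.

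Cox6a2, the third muscle form, held 12.0, 21.0, 12.9 and 31.5 CPM in control and 7.95, 6.20, 21.1 and 2.49 in radiated skin of week 3. Radiated replicate 3 alone reached the control range. With it the change was -1 (adjusted p 0.221, edgeR), and without it -1.77 (adjusted p 0.0293). The partner Cox6a1 (chr5:115345642-115348981, GRCm38) held 17.4, 23.2, 19.3 and 23.1 CPM in control and 19.0, 22.0, 68.9 and 18.0 in radiated skin. Its change of 0.65 (adjusted p 0.271, edgeR) became -0.05 without radiated replicate 3. In week 4, Cox6a2 held 1.64, 10.1, 5.85 and 15.7 CPM in control and 4.01, 4.62, 5.78 and 2.41 in radiated skin, again with overlap (-0.99, adjusted p 0.164, edgeR). Leaving out 1 library at a time, this change ran from -1.3 to -0.45.

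Cox4i2, a second form of Cox4 known from lung and from low-oxygen settings (chr2:152754173-152765037, GRCm38), was the one member that rose in week 3. Control libraries held 0.360, 0.614, 0.511 and 1.03 CPM and radiated libraries 3.02, 1.63, 3.31 and 1.15. Every radiated library was above every control library, though sham libraries at 0.883, 1.39 and 1.39 overlapped the radiated ones. The change was 1.90 (SE 0.472, adjusted p 0.0169, edgeR) and did not pass with the pairs as a block (adjusted p 0.0684) or without control replicate 1 (0.0506). In week 4, 1.01, 0.884, 0.171 and 0.115 CPM in control stood against 1.15, 1.12, 1.68 and 2.14 (1.52, adjusted p 0.0587, edgeR). Cox4i1, the common form, held 90.9, 145, 106 and 101 CPM in control and 96.7, 92.0, 106 and 97.3 in radiated skin of week 3, with overlap. Its change of -0.15 (adjusted p 0.512, edgeR) turned to 0.09 under total-count scaling.

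Ratios of the 4 isoform pairs were tested in each week, 16 tests in all, with a two-sided exact permutation test over the 8 libraries. After Benjamini-Hochberg adjustment 0 of 16 passed, the smallest adjusted p being 0.152. In week 3, 3 ratios reached 0.0286, the smallest exact p that 4 against 4 libraries allow. They were Cox6a2 to Cox6a1 (difference -1.69), Cox7a1 to Cox7a2 (-1.29) and Cox4i2 to Cox4i1 (1.84), each with the same sign in 4 of 4 pairs. Cox8b to Cox8a differed by -1.82 in week 3, lower in 4 of 4 pairs, with an exact p of 0.0571.

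**Figure D3:**
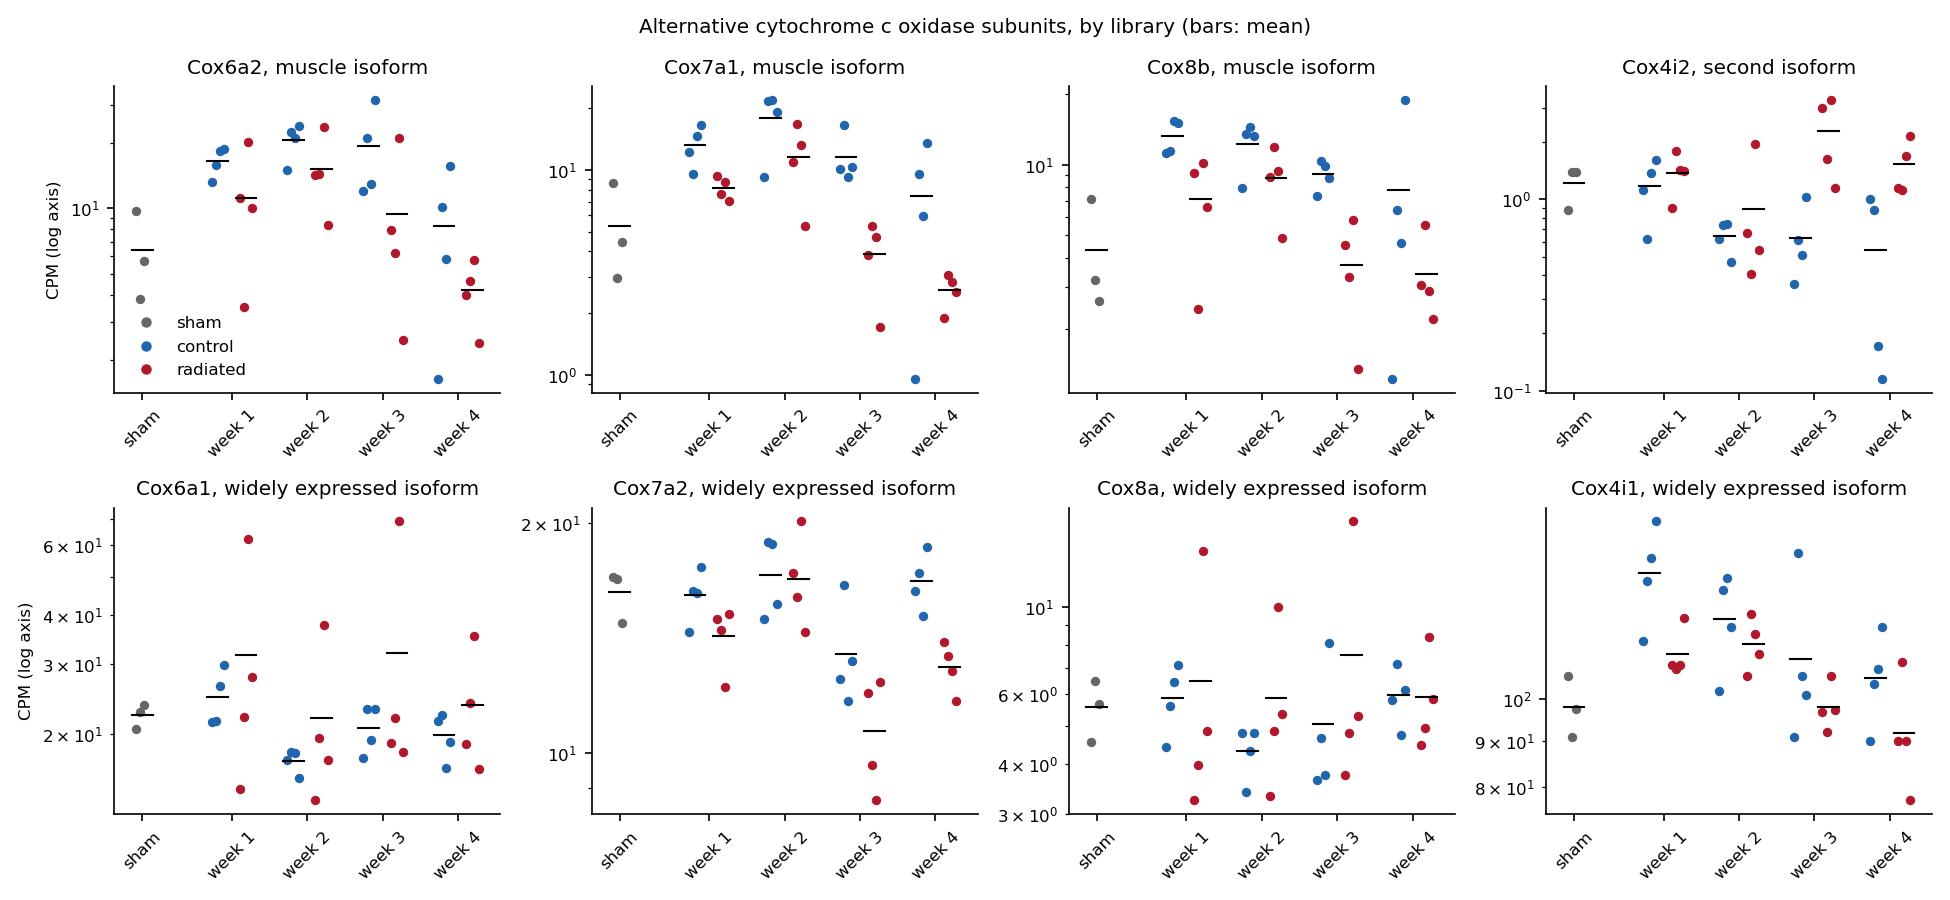
CPM of each isoform in each library on log axes (muscle or second form above, widely expressed form below); within a week, control libraries are on the left and radiated on the right, and bars give means. In week 3 the muscle form Cox7a1 lies at 1.70 to 5.32 CPM in radiated and 9.25 to 16.6 in control skin, and 1 radiated library of Cox6a1 stands at 68.9.

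Cox5a had no detectable change in any week (adjusted p 0.582, 0.838, 0.971 and 0.215 in weeks 1 to 4, edgeR). Its control libraries of week 3 held 15.6, 25.4, 16.5 and 26.9 CPM and its radiated libraries 19.8, 17.3, 25.9 and 19.0 (-0.01, SE 0.227, adjusted p 0.971, edgeR), a value that was 0.22 under total-count scaling. In order of group means, Cox5a ran from 14.9 ± 1.67 CPM (SD, n = 4) in control skin of week 4 to 27.1 ± 4.04 in control skin of week 2, with sham at 17.4 ± 3.59 (n = 3). Neighbours in that order lay within their spread.

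Ndufa4, a complex IV subunit despite its name, held 19.8, 26.5, 24.5 and 25.0 CPM in control and 15.5, 16.5, 19.6 and 20.3 in radiated skin of week 3. The groups overlapped slightly and the change did not pass (-0.39, adjusted p 0.0961, edgeR). Ndufa4l2, its paralog linked to low oxygen, split the radiated libraries of week 3, with 6.67 and 3.78 CPM in replicates 1 and 2 and 25.3 and 32.7 in replicates 3 and 4, around a control range of 9.94 to 18.2. Its change of 0.20 (adjusted p 0.822, edgeR) was -0.08 after a G+C correction and -0.23 with the pairs as a block. Cox7a2l, which links complexes into supercomplexes, fell in week 4 from 84.1, 91.3, 103 and 102 to 54.6, 64.4, 44.8 and 50 CPM, without overlap (-0.82, SE 0.121, adjusted p 0.000398, edgeR).

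Cox7b, an X-linked complex IV subunit (chrX:106015700-106022450, GRCm38), fell in both weeks. Week 4 control libraries held 9.95, 13.5, 10.1 and 15.1 CPM and radiated ones 6.53, 8.65, 6.99 and 5.31. All radiated libraries were lower (-0.82, SE 0.198, adjusted p 0.00699, edgeR), and in week 3 the change was -1.13 (adjusted p 0.00995).

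The 13 subunits encoded in the mitochondrial genome are partners of the nuclear ones in complexes I, III, IV and V. All 13 fell in week 3, with a median of -1.64, and all 13 in week 4, with a median of -1.10, where 13.6% and 24.2% of all genes fell. In week 3 the count was 12 with the pairs as a block and 12 without radiated replicate 3. Their summed level was 22400 to 46100 CPM in control and 10300 to 11200 in radiated skin of week 3. In week 4 it was 20800 to 27300 against 10300 to 11400, while sham ranged from 14900 to 26500. In week 2, 0 of 13 fell, and 8 of 13 with the pairs as a block. mt-Atp6, in the proton channel of complex V, changed by -1.94 (649 ± 64.2 against 2490 ± 457 CPM, SD, n = 4; adjusted p 7.6e-06, edgeR) in week 4. mt-Cytb, the mitochondrial subunit of complex III, changed by -1.41 (701 ± 17.1 against 1870 ± 269 CPM; adjusted p 1.13e-05, edgeR).

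Pathways around the respiratory chain were read from fixed lists, with changes given for radiated minus control skin. Over all genes, 13.6% fell and 13.6% rose in week 3, and 24.2% did each in week 4, which is the background for these counts. Of 16 enzymes of the citric acid cycle and of pyruvate dehydrogenase, which feeds it, 8 fell and 0 rose in week 3, and 8 fell and 1 rose in week 4 (medians -0.45 and -0.43), with Sucla2 (-0.96) and Pdha1 (-0.74) having the smallest p in week 4. Among 15 mobile carriers and feeding dehydrogenases, 7 fell and 1 rose in week 3 (0 rose with the pairs as a block), and 6 fell and 1 rose in week 4. Coq9, needed for making ubiquinone, fell (-0.91, adjusted p 0.00142, edgeR), whereas Pdss1, which makes its side chain, rose (1.45, adjusted p 3.58e-05, edgeR) in week 4. The 31 assembly factors of complexes II to V gave 0 lower and 3 higher in week 3, and 7 lower and 1 higher in week 4, with the week 4 falling share close to that of all genes. Cox14 (-0.68) and Bcs1l (-0.67) had the smallest p in week 4.

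Of 8 nucleotide and phosphate carriers and outer membrane channels, 4 fell in each week and 0 and then 2 rose. Slc25a4, the muscle-type carrier that exchanges ADP for ATP, changed by -1.87 in week 3 (adjusted p 0.000943, edgeR) and by -1.42 in week 4 (adjusted p 0.0147, and 0.0577 with the pairs as a block). Vdac2 rose in week 4 (0.38, adjusted p 0.00313, edgeR). Of 14 regulators of mitochondrial genes, 4 fell and 1 rose in week 3 and 5 fell and 1 rose in week 4. Perm1, a muscle regulator, fell (-1.07) and Pprc1 rose (0.68) in week 4. Among 18 glycolysis enzymes, which make ATP without oxygen, 5 fell and 3 rose in week 3, and 3 fell and 7 rose in week 4. Eno1 had the smallest p, from 92.2 ± 17.3 to 286 ± 17.1 CPM in week 4 (SD, n = 4; 1.64, adjusted p 9.84e-06, edgeR), followed by Pgam1 (1.08, adjusted p 3.54e-05, edgeR). With the pairs as a block, week 3 gave 5 enzymes of the citric acid cycle list and 3 glycolysis enzymes lower and 0 assembly factors higher, and week 4 gave 4 assembly factors, 3 regulators and 2 carriers or channels lower. The regulator that rose in week 3 passed neither with the block nor without radiated replicate 3. Without radiated replicate 3, carriers and channels gave 2 lower in week 3 and 1 higher in week 4, and assembly factors gave 2 lower in week 3 and 3 higher in week 4.

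Skeletal muscle markers moved with the same groups. The summed level of 14 muscle markers had a median of 38000 CPM (23900 to 45100) in control and 6870 CPM (4260 to 10700) in radiated skin of week 3, with 12 of 14 lower. In week 4 it was 16600 CPM (2110 to 30300) in control and 3500 CPM (2780 to 6010) in radiated skin, with 10 of 14 lower and 1 higher, and 2 lower with the pairs as a block. The medians of week 1 were 40100 and 16200 CPM, those of week 2 46900 and 22700, and sham was at 13200. None of the 14 was at 0 in every library of a group. In week 2, 0 of 14 were lower, and 10 of 14 with the pairs as a block. Control replicate 1 of week 4, the library lowest in Cox7a1, also had the lowest muscle sum, 2110 CPM.

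Some other cell type markers moved as well. Over all genes, 13.6% were called in each direction in week 3 and 24.2% in week 4. All 5 neutrophil markers rose in weeks 3 and 4 (medians 6.91 and 5.40), macrophage markers rose in 3 (1 without radiated replicate 3) and then 6 of 6 (in week 2, 0, and 6 with the pairs as a block), and fibroblast markers in 1 (with 1 lower) and then 5 of 6. Keratinocyte markers gave 1 higher and 1 lower of 6 in week 3, near the shares of all genes, and 1 higher and 4 lower in week 4. Adipocyte markers fell in 1 and then 2 of 8, close to the shares of all genes. Ucp1, which defines brown fat, was at 0 in every library of 5 of the 9 groups. In week 4, 3 of 4 endothelial and 3 of 4 melanocyte markers rose and 3 of 5 sebaceous gland markers fell. Smooth muscle and pericyte markers fell in 2 of 5 in week 3 (3 without radiated replicate 3) and in 2 of 5 in week 4, where 1 rose. Brown or beige adipocyte markers gave 1 lower of 4 tested in week 3, and 2 lower and 1 higher in week 4. Markers of the growing (anagen) hair follicle rose in 7 of 10 in week 4 (4 with the pairs as a block; 4 higher and 3 lower without radiated replicate 3). The part of these cell types in the members' changes was not tested.

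**Figure D4:**
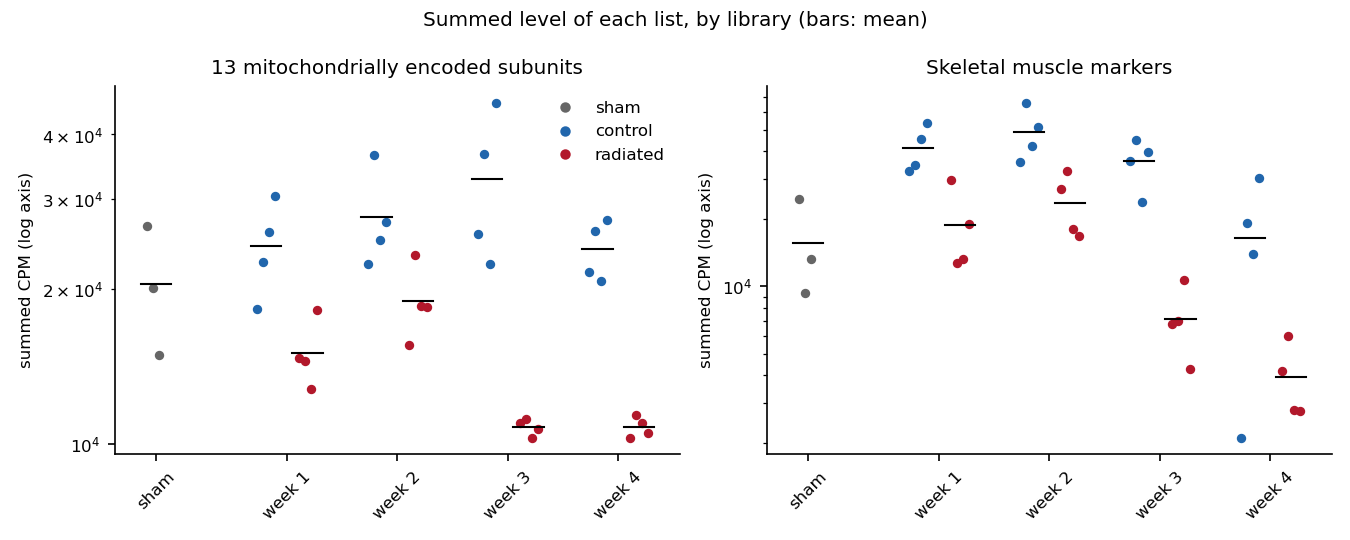
Summed CPM on log axes of the mitochondrially encoded subunits (left) and of the skeletal muscle markers (right) in each library; within a week, control libraries are on the left and radiated on the right, and bars give means. Radiated libraries of week 3 lie at 10300 to 11200 CPM on the left and 4260 to 10700 on the right, all below control.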

How the data were processed

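Sequencing of total RNA from 35 skin samples gave estimated counts per gene, which the authors deposited; Kallisto and DESeq2 were used per the labels' protocols. Per the submitters' processing notes, Trim Galore 0.6.7, kallisto 0.46.2 and the build mm10 were used, and the transcriptome release is not given in the sources used here. The estimated counts were rounded, and each comparison was fitted on its own samples with edgeR 4.0.16 (R 4.3.3): TMM scaling, filterByExpr, the quasi-likelihood F test, Benjamini-Hochberg adjustment over all genes tested and a threshold of 0.05. CPM are counts over TMM-scaled totals; log2 values had a prior count of 2. The replicates are mice. Alternatives were total-count scaling, DESeq2 1.42.0, no filter, unrounded counts, 1 fit of 35 samples, a replicate block, leaving out each library and, added after seeing the data, a G+C correction.

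Radiated and control samples of the same number were paired because 35 samples came from 19 mice; their deviations correlated at a mean of 0.07, 0.17, 0.05 and -0.02 in weeks 1 to 4. Sham samples share only numbers with the others. Values of single libraries, from week 3, week 4 or both, are given for Cox5a, the isoform pairs and Ndufa4 with its paralog. They are also given for the largest called increase and decrease of each complex in weeks 3 and 4 with a mean of at least 5 CPM. Ndufb8, Atp5c1 and Cox7a2l were added after their values were seen, and other members are named by count, role or call. The members and lists were chosen with earlier results of these data known. In simulated counts of radiated against control skin, 49%, 34%, 27% and 81% of genes changed by a log2 fold change of 1 were recovered in weeks 1 to 4. Each simulation changed 100 genes by 1 and 100 by 2, all above a mean of 5 CPM. Far more genes were called in weeks 3 and 4 of the data (27.2% and 48.4%), so these shares are not the power of the tests there. Gene positions are from GENCODE M21 (GRCm38).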

Additional observations from a re-analysis of the deposited data

Results flagged for a closer look

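Among 19 genes in 8 groups of 4 libraries, 11 of 152 sets held 1 library whose gap to its nearest neighbour took up more of the range than Dixon's critical value, and chance alone gives about 1 in 20. Radiated replicate 3 was that library in 5 of the 11. It was highest for Cox6a1 in week 3 (68.9 CPM, next 22), for Cox8a in weeks 1 (13.8, next 4.85) and 3 (16.4, next 5.29), for Cox4i2 in week 2 (1.94, next 0.663) and for Ndufa4l2 in week 2 (44.2, next 19.8). Other radiated libraries stood out for Cox4i1 in week 1 (replicate 4 at 123 CPM, next 109), Ndufa12 in week 2 (replicate 2 at 57, next 42.6), Atp5mpl in week 2 (replicate 4 at 16.3, next 11) and Cox7b in week 1 (replicate 1 lowest at 6.83, next 10.3). In control skin they were Cox5a in week 1 (replicate 4 at 34.2 CPM, next 19.9) and Cox7a1 in week 3 (replicate 2 at 16.6, next 10.4).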

How the results depend on the processing

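In radiated against control skin, the number of members called was 11 in week 3 under total-count scaling (3 higher, 8 lower) and 36 in 1 fit of all 35 samples. DESeq2 called 4 in week 1 and 1 in week 2 (2.41% and 4.23% of all genes), and the single fit 1 in week 2. Leaving out 1 library gave 12 to 25 in week 3 and 15 to 35 in week 4. With the pairs as a replicate block, 18 were called in each of weeks 3 and 4, where 21.1% and 42.7% of all genes were. The calls of Atp5h, Ndufs6, Ndufv2, Uqcrfs1 and Cox4i2 were lost in week 3, and those of Atp5j2, Cox7a2, Ndufa13, Ndufa9, Ndufs6 and Ndufv2 in week 4. The interaction gave 1 member under total-count scaling and 1 with the block.

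Radiated against sham skin gave 1 member in week 2 by DESeq2 (13.8% of all genes) and 2 in the single fit. Week 3 gave 7 by DESeq2 (26.7% of all genes), 0 without the filter, 15 in the single fit and 2 with the G+C correction. Week 4 gave 3 under total-count scaling, 5 by DESeq2 (32.7% of all genes) and 0 without the filter. It gave 6 in the single fit, 0 with the replicate block (17.2% of all genes) and 2 with the G+C correction. Leaving out 1 library gave 0 to 4 and 0 to 5. Control against sham skin gave 1 in week 1 under total-count scaling, 27 by DESeq2 and 3 in the single fit; 19, 2 (no filter) and 10 in week 2; 5 by DESeq2 and 0 in the single fit in week 3; and 1 by DESeq2 in week 4. Over all genes DESeq2 called 16.6%, 11%, 20.1% and 10.3% in weeks 1 to 4 of this comparison. The replicate block, which pairs by number only here, gave 0 in weeks 1 to 3, where it called 0%, 0.0056% and 2.66% of all genes. Leaving out 1 library gave 0 to 11, 0 to 22 and 0 to 3. Shares over all genes are not given here for the other settings, so those counts have no background beside them.

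Directions turned for Cox5a in week 3 (0.22 under total-count scaling, 0.01 with the block, with or without G+C correction), Cox4i1 in week 3 and Cox8a in week 4 (each 0.09 under total-count scaling) and Ndufa4l2 in week 3 (-0.23 with the block, -0.08 with the G+C correction, -0.44 with both). Leaving out 1 library spanned 0 for Cox4i1 (-0.24 to 0.01), Cox5a (-0.15 to 0.12), Cox6a1 (-0.05 to 0.85), Cox8a (-0.1 to 0.94) and Ndufa4l2 (-0.31 to 0.53) in week 3, Cox8a in week 4 (-0.21 to 0.11), the Cox4i2 to Cox4i1 ratio in week 2 (-0.1 to 0.6) and the Cox8b to Cox8a ratio in week 4 (-1.38 to 0.16). The cause was not tested. Members near the floor of 0.105 to 0.173 CPM, such as Cox4i2 in control skin, are limited by depth.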
